A study of Mus musculus with 16 samples.

Results

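AP-1 and immediate early factors are described here in mouse fibroblasts on their way to induced pluripotency. The members were picked by name: *Fos*, *Fosb*, *Fosl1*, *Fosl2*, *Jun*, *Junb*, *Jund*, *Atf3*, *Egr1* and *Ier2*. All 10 were among the 18990 genes of the deposited table, and all 10 were among the 14028 genes that passed the filter on low values and were tested.

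Wild-type BL6 mouse embryonic fibroblasts (MEFs) at passage 2 carried a lentiviral, doxycycline-inducible cassette of *Oct4*, *Sox2*, *Klf4* and *c-Myc* (OSKM) together with the transactivator it needs. Every group received 40 nM of pooled siRNA 1 day before OSKM was switched on, and all were grown in 2 µg/mL doxycycline, 3 µM Chiron (a GSK3 inhibitor), 0.25 µM Alk5i (a TGF-β receptor inhibitor), 50 µg/mL ascorbic acid and LIF. The siRNAs were non-targeting (nt control) or targeted *Wdr5*, a subunit of histone H3 lysine 4 methyltransferase complexes, or *Brca1* or *Bard1*, which form a ubiquitin ligase of DNA repair. RNA of the whole culture was sequenced at day 3 and day 6, giving 8 groups of 2 libraries from independent experiments. The cultures were mixtures of cells at different stages, and the virus entered each cell separately. In such bulk samples fewer cells of a type and less RNA per cell cannot be told apart.

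The libraries held 11169738 to 26832534 reads. Each siRNA lowered its own target at day 3, with log2-fold changes of −1.31 for *Wdr5* (adjusted p = 3.02e-06), −1.57 for *Brca1* (adjusted p = 7.90e-05) and −0.62 for *Bard1* (adjusted p = 0.0422). The other targets also fell: *Brca1* (−0.86) and *Bard1* (−1.03) in siWdr5, *Wdr5* (−0.87) and *Bard1* (−1.38) in siBrca1, and *Wdr5* (−0.48) in siBard1. At day 6 no target passed the test against the nt control. In the nt control itself *Wdr5* (−0.47), *Brca1* (−1.09) and *Bard1* (−1.24) fell from day 3 to day 6. The summed level of 11 fibroblast markers was 8398.5 to 9383 CPM (reads scaled to the library size) in the nt control at day 3. The 7 blood and endothelial markers found in the table, of 13 listed, summed to 46.8 to 47.3 CPM there, of which *Tek*, a receptor kinase of endothelium, made up 39.4 to 40.4 CPM, while *Adgre1*, *Pecam1* and *Cdh5* had at most 0.285 CPM.

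AP-1 is a dimer of basic leucine zipper proteins. Jun proteins pair with themselves or with Fos proteins, Fos proteins need a Jun partner, and the dimer binds a short palindrome in enhancers and promoters. In fibroblasts AP-1 is known to sit at many of the enhancers that keep mesenchymal genes active, and several of its genes are immediate early genes, which serum, growth factors and stress switch on within minutes without new protein synthesis.

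Induction of such genes is known to work through short motifs ahead of the start site. RefSeq (GRCm38.p6) promoters of 250 bases before to 50 after the start were given for 7 members, all but *Fosl1*, *Egr1* and *Ier2*. Motifs were searched on both strands in these 7 and in all 32851 promoters. The AP-1 site TGACTCA, the cAMP response element TGACGTCA and the CArG box were in none of the 7 windows (5.2%, 1.79% and 1.63% of all promoters held them). Bases farther than 250 before the start were not searched, so these members may hold such sites there. The shorter site TGACG, which lies within the cAMP response element, was in *Fos*, *Fosb*, *Junb* and *Atf3* (20.8% of all promoters), the related TGACATCA in *Jun* alone (3.62%) and the TATA box TATAAA in *Fos* and *Junb* (13.6%). *Fosl2* and *Jund* held no match. A match is a description of letters and not a shown binding site. The bases ahead of the gene are printed for the 3 members that held a match and passed the test in siWdr5 at day 3 or day 6. They run 5′ to 3′ on the gene's strand, with every match in capitals.
*Fos*, chr12:85473640-85473889, plus strand: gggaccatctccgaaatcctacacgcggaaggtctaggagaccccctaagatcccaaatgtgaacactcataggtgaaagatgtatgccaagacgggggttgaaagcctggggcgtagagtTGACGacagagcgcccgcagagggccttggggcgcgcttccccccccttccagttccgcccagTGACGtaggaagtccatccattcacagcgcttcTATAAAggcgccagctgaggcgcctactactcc
*Jun*, chr4:95052223-95052472, minus strand: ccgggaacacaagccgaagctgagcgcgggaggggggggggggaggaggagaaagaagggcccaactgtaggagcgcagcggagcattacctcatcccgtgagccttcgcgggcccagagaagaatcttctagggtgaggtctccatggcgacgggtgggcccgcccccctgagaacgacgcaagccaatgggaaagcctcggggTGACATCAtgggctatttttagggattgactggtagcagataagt
*Junb*, chr8:84978719-84978998, minus strand: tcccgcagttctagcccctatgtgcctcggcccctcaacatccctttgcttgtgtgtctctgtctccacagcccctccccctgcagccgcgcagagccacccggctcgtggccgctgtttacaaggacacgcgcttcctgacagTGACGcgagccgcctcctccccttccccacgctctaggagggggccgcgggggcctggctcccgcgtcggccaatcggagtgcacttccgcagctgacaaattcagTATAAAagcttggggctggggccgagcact

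In *Fos* the TGACG sites began at −129 and −66 and the TATA box at −33 from the RefSeq start, and in *Jun* TGACATCA began at −45. In *Junb* the TGACG site began at −106 and the TATA box at the RefSeq start itself, which lies 30 bases ahead of the gene's start in GENCODE vM21. *Jun*, *Jund* and *Ier2* have a single exon in that annotation, as many genes of rapid induction do, while models of *Fosl2* have up to 4. The exonic bases of a gene were counted over all its models together, 9680 for *Fosl2*. Levels per length below use this count, so their ranks depend on the annotation.

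Per length of exon, *Junb* and *Fosl2* stood highest in the nt control at day 3. Their levels were 32.8 ± 0.754 and 32.3 ± 1.35 CPM per kb (mean ± SD, n = 2) and did not differ beyond the spread of the libraries. *Jun* followed at 22.9 ± 2.47, *Ier2* at 18.8 ± 1.20, *Fosl1* at 15.5 ± 0.629, *Jund* at 10.0 ± 1.55 and *Egr1* at 7.21 ± 0.335 CPM per kb. *Fos* at 3.24 ± 0.609, *Atf3* at 2.43 ± 0.370 and *Fosb* at 0.202 ± 0.0138 CPM per kb were the lowest, and each of these 8 stood below the one named before it in both libraries. By day 6 *Jun*, at 29.9 ± 2.95 CPM per kb, stood above *Fosl2*, at 23.2 ± 1.68, without overlap. *Atf3*, at 3.30 ± 0.150 CPM per kb, then stood above *Fos*, at 2.19 ± 0.163. *Fosb* is the thinnest measurement, with 14 to 41 reads per library, whereas *Fosl2* had 2675 to 12316.

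**Figure D1:**
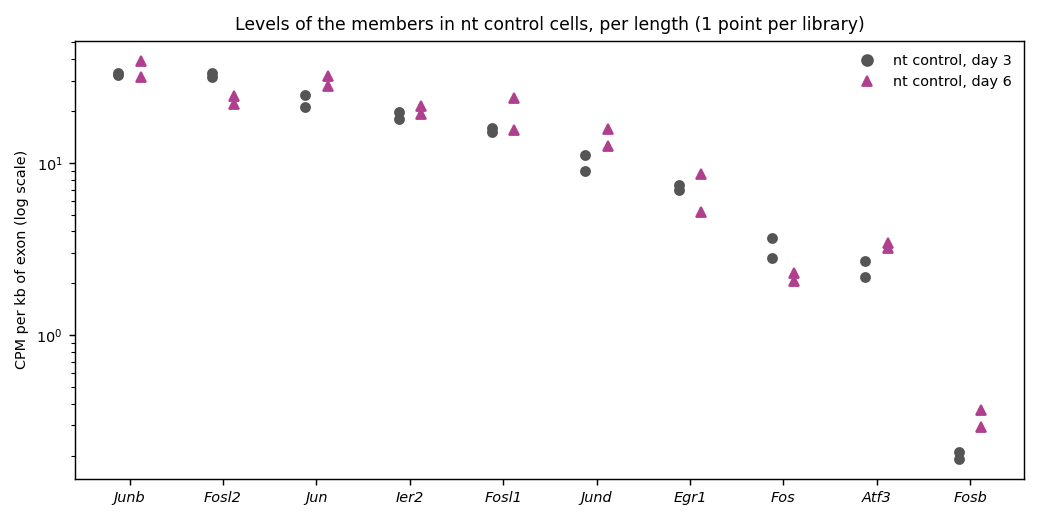
CPM per kb of exon (vertical, log scale) for each member in the nt control, with 1 point per library (circles for day 3, triangles for day 6). *Junb* and *Fosl2* lead at day 3 near 33 CPM per kb, and *Fosb* is lowest at about 0.2 CPM per kb.

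The first comparison follows the nt control from day 3 to day 6, when 8 of 8 tested epithelial and pluripotency markers rose. Of the members *Fosl2* alone fell and *Jund* alone rose, against 27.1% of all genes tested that fell and 19.0% that rose. *Fosl2* encodes Fra-2, a Fos protein without the strong activation domain of Fos. Its level was 304 and 322 CPM at day 3 and 236 and 213 CPM at day 6, both later libraries below both earlier ones. The log2-fold change was −0.48 (SE 0.14, limma with Benjamini-Hochberg adjustment over all genes tested, adjusted p = 0.00954), and it did not pass without replicate 2 of the nt control of either day (adjusted p = 0.0724 and 0.0785).

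*Jund*, the Jun gene that is least tied to induction and is expressed in resting cells, stood at 18.5 and 14.9 CPM at day 3 and at 26.4 and 20.9 CPM at day 6. The groups did not overlap, and the log2-fold change was 0.50 (SE 0.20, adjusted p = 0.0493). Limma-voom on the recovered reads gave an adjusted p of 0.0520 for *Jund*, and leaving out replicate 2 at day 3 or replicate 1 at day 6 gave 0.300 and 0.307. *Fos* went from 8.64 and 6.62 CPM to 4.88 and 5.42 CPM and missed the threshold (log2-fold change −0.54, adjusted p = 0.0531). The remaining 7 members had log2-fold changes of −0.10 to 0.66 and did not pass. When each library was centred on its median gene, 4 members passed, the additional ones being *Jun* at 0.44 and *Atf3* at 0.49 on the log2 scale.

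**Figure D2:**
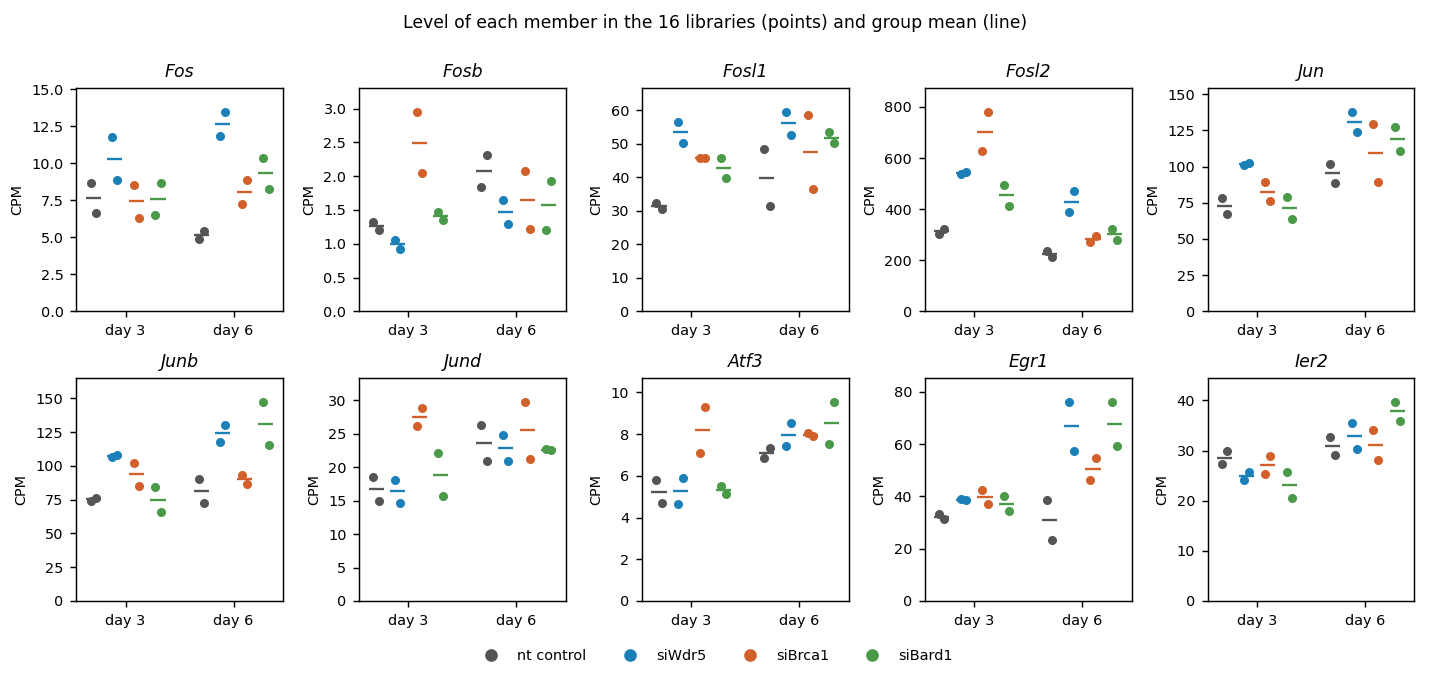
CPM (vertical, from 0) of each member in all 16 libraries by day, with 2 points and a line at their mean for each group. *Fosl2* is above the nt control in all 3 knockdowns at both days, *Fosb*, *Jund* and *Atf3* are high in siBrca1 at day 3, and at day 6 *Fos* is high in siWdr5 and *Egr1* in siWdr5 and siBard1.

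The main question at day 3 is how the RNA of these factors stood under each siRNA while OSKM was active. No member passed the test as lower in any knockdown. In siWdr5 *Fosl1*, *Fosl2*, *Jun* and *Junb* rose (4 of 10, where 18.3% of all genes tested rose and 16.8% fell). In siBrca1 *Fosb*, *Fosl1*, *Fosl2*, *Jund* and *Atf3* rose (5 of 10, where 25.4% rose and 21.8% fell). In siBard1 *Fosl1* and *Fosl2* rose (2 of 10, where 8.67% rose and 5.87% fell). The 3 knockdowns were compared with the same 2 nt control libraries, so their changes are not independent of each other. The median log2-fold change of the members was 0.35, 0.42 and 0.09 in siWdr5, siBrca1 and siBard1, beside −0.04, 0.00 and −0.02 over all genes tested.

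*Fosl2* (GRCm38 chr5:32135801-32157842, plus strand) moved most. At day 3 it had 304 and 322 CPM in the nt control, 539 and 544 CPM in siWdr5, 627 and 781 CPM in siBrca1 and 496 and 412 CPM in siBard1. All 6 knockdown libraries lay above both control libraries, and those of siBrca1 lay above every other. The rise was 1.16 on the log2 scale in siBrca1 (SE 0.13, adjusted p = 1.46e-05), 0.79 in siWdr5 (SE 0.13, adjusted p = 0.000426) and 0.53 in siBard1 (SE 0.13, adjusted p = 0.0147). With the calls limited to an absolute log2-fold change above 1, *Fosl2* in siBrca1 was the 1 member change left at day 3.

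*Fosl1*, which encodes Fra-1, the other Fos-related antigen and a factor known for cell motility and invasion, had 32.3 and 30.5 CPM in the nt control. It had 56.5 and 50.3 CPM in siWdr5, 45.7 and 45.7 CPM in siBrca1, and 45.7 and 39.6 CPM in siBard1. No knockdown library fell into the control range, and the siWdr5 libraries were highest. The log2-fold changes were 0.76 (SE 0.12, adjusted p = 0.000338), 0.54 (SE 0.12, adjusted p = 0.00202) and 0.44 (SE 0.12, adjusted p = 0.0265) in the same order. Both siBard1 calls were lost without either nt control library or without siBard1 replicate 1, while *Fosl1* and *Fosl2* in siWdr5 and siBrca1 passed without any 1 library.

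Of the 2033 exonic bases of *Fosl1* (chr19:5447547-5455946, plus strand), 1163 (57.2%) lie opposite *Ccdc85b*, and without a statement that counting used the strand, reads of the pair cannot be told apart. *Ccdc85b* itself had 18.0 and 17.7 CPM in the nt control, 16.98 and 15.8 CPM in siWdr5, 27.7 and 32.6 CPM in siBrca1 and 20.2 and 13.5 CPM in siBard1. It rose in siBrca1 (log2-fold change 0.74, adjusted p = 0.00313) whereas siWdr5 and siBard1 both had −0.12 (adjusted p = 0.607 and 0.696), and its part in the *Fosl1* values was not tested.

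*Fos* itself, the prototype of the immediate early genes, did not pass in any knockdown at day 3. Its level was 8.64 and 6.62 CPM in the nt control, 11.8 and 8.89 CPM in siWdr5, 8.56 and 6.33 CPM in siBrca1 and 6.52 and 8.68 CPM in siBard1. Both siWdr5 libraries and 1 siBard1 library stood above both controls, and in siWdr5 the 95% interval of the log2-fold change ran from −0.05 to 0.91.

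*Fosb*, a close relative of *Fos* at chr7:19302696-19310051 on the minus strand, had 1.32 and 1.20 CPM in the nt control, 1.06 and 0.929 CPM in siWdr5, 2.95 and 2.04 CPM in siBrca1 and 1.47 and 1.35 CPM in siBard1. The siBrca1 libraries stood above all others and the siWdr5 libraries below all others. It rose in siBrca1 (log2-fold change 0.90, SE 0.31, adjusted p = 0.0275). These values rest on 14 to 40 reads, and the call was lost without replicate 1 of siBrca1 (adjusted p = 0.186) or without either nt control library (0.0862 and 0.127).

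Among the Jun genes, *Jun* had 78.6 and 67.5 CPM in the nt control, 101 and 103 CPM in siWdr5, 89.2 and 76.5 CPM in siBrca1 and 78.9 and 63.7 CPM in siBard1. *Junb*, a Jun protein that can restrain Jun, had 74.1 and 76.6 CPM, 106 and 108 CPM, 102 and 85.4 CPM, and 84.3 and 65.8 CPM in the same order. The siWdr5 libraries were the highest for both genes, with no overlap with the control. Both rose in siWdr5, *Jun* by a log2-fold change of 0.48 (SE 0.13, adjusted p = 0.0103) and *Junb* by 0.51 (SE 0.13, adjusted p = 0.00782). Without siWdr5 replicate 1 the adjusted p was 0.0655 for *Jun* and 0.0584 for *Junb*, and without siWdr5 replicate 2 it was 0.0741 and 0.0617, which leaves 2 of the 4 calls in either case. *Jun* was also lost without nt control replicate 2 (adjusted p = 0.126) and *Junb* without nt control replicate 1 (0.0658). *Jun* has 232 exonic bases (7.28%) opposite *Junos* and *Junb* 173 (7.52%) opposite *Prdx2*, whose own log2-fold changes in siWdr5 were 0.72 (adjusted p = 0.0809) and 0.15 (adjusted p = 0.275). In siBrca1 *Junb* missed the threshold (log2-fold change 0.31, adjusted p = 0.0609) and passed with median centring (adjusted p = 0.0318) or the replicate block (0.0444).

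*Jund* had 18.5 and 14.9 CPM in the nt control, 18.1 and 14.7 CPM in siWdr5, 26.3 and 28.8 CPM in siBrca1 and 22.1 and 15.6 CPM in siBard1. The siBrca1 libraries lay above all others, and the remaining groups overlapped. *Jund* rose in siBrca1 (log2-fold change 0.72, SE 0.18, adjusted p = 0.00444), and without nt control replicate 2 the adjusted p was 0.0617. In the annotation (chr8:70698949-70700616, plus strand) 877 of its 1668 exonic bases (52.6%) lie opposite the predicted gene *Gm11175*. That symbol is not in the deposited table, so its level could not be read, and its part in the *Jund* values was not tested.

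*Atf3*, at chr1:191170296-191218039 on the minus strand, encodes a stress-induced partner of Jun proteins that often represses. It had 5.80 and 4.68 CPM in the nt control, 4.67 and 5.91 CPM in siWdr5, 7.08 and 9.29 CPM in siBrca1 and 5.54 and 5.14 CPM in siBard1. Both siBrca1 libraries lay above the control range, as did 1 siWdr5 library by a small margin. The rise in siBrca1 (log2-fold change 0.62, SE 0.21, adjusted p = 0.0268) did not pass without siBrca1 replicate 2 (adjusted p = 0.167) or nt control replicate 2 (0.197). Without nt control replicate 2 the siBrca1 count fell from 5 members to 2, *Fosl1* and *Fosl2*.

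*Egr1*, a zinc finger immediate early factor outside AP-1, had 33.4 and 31.3 CPM in the nt control, 39.1 and 38.6 CPM in siWdr5, 42.6 and 37.1 CPM in siBrca1 and 40.0 and 34.6 CPM in siBard1. All knockdown libraries lay above both controls, yet the log2-fold changes of 0.26, 0.30 and 0.20 did not pass (adjusted p = 0.110, 0.0602 and 0.282). After median centring of the libraries *Egr1* passed in siWdr5 (0.33, adjusted p = 0.0374) and siBrca1 (0.33, adjusted p = 0.0304). *Ier2*, a small nuclear protein induced early by growth factors, had 20.5 to 29.9 CPM in the 8 libraries and log2-fold changes of −0.19, −0.08 and −0.31 that did not pass.

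**Figure D3:**
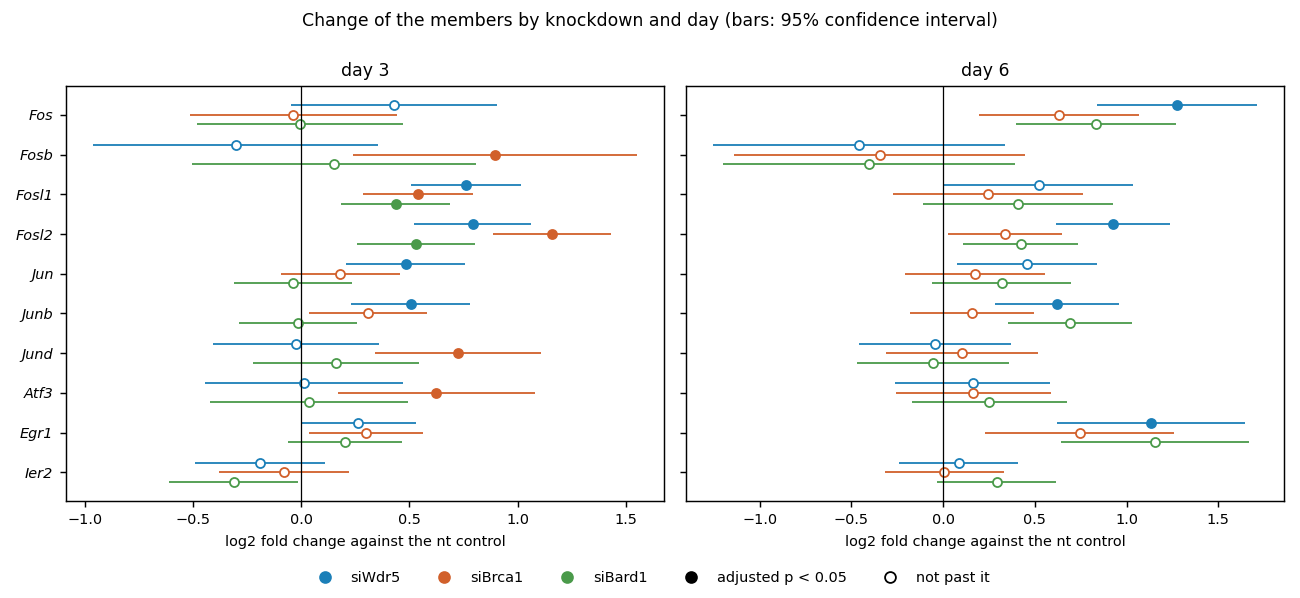
Log2-fold change against the nt control of the same day (horizontal) for each member, with 1 colour per knockdown, bars for the 95% confidence interval and filled points at adjusted p < 0.05. At day 3 *Fosl1* and *Fosl2* are filled in all 3 knockdowns, and at day 6 the 4 filled points are all siWdr5.

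Markers of cell state moved in the same libraries. At day 3 the summed level of the 11 fibroblast markers was 8398.5 to 9383 CPM in the nt control, 14862 to 15477 CPM in siWdr5, 12201 to 13445 CPM in siBrca1 and 10363 to 11992 CPM in siBard1. Of these markers 10, 6 and 1 rose and 0, 1 and 1 fell in siWdr5, siBrca1 and siBard1. The shares that rose were 90.9%, 54.5% and 9.09%, beside 18.3%, 25.4% and 8.67% of all genes tested. Of all genes tested 16.8%, 21.8% and 5.87% fell. The 10 epithelial and pluripotency markers summed to 49.8 to 73.15, 20.8 to 21.2, 23.5 to 37.8 and 38.8 to 47.0 CPM in the same order, with *Zfp42*, *Dppa4* and *Dppa5a* at 0 reads in the nt control, and of the 8 tested 0, 1 and 0 rose and 4, 3 and 1 fell. The blood and endothelial markers summed to 46.8 to 47.3, 61.95 to 69.7, 38.1 to 54.1 and 48.4 to 55.03 CPM. The part of these markers in the changes of the AP-1 genes was not tested.

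Whether the knockdowns differed from each other was tested directly, without the nt control. Between siBrca1 and siWdr5, *Fosb* (log2 difference 1.20, adjusted p = 0.0178) and *Jund* (0.75, adjusted p = 0.0126) were higher in siBrca1 (2 of 10, where 15.7% of all genes tested differed). Between siBrca1 and siBard1, *Fosl2* (0.63, adjusted p = 0.00576) and *Jund* (0.56, adjusted p = 0.0384) were higher in siBrca1 (2 of 10, where 21.4% differed). Between siWdr5 and siBard1, *Jun* and *Junb* (both 0.52, adjusted p = 0.0230 and 0.0227) were higher in siWdr5 (2 of 10, where 8.63% differed). *Jund* was thus higher in siBrca1 than in either other knockdown. *Fosl2* did not pass between siBrca1 and siWdr5 (0.37, 95% interval 0.10 to 0.64, adjusted p = 0.0636). All these calls between siBrca1 and siWdr5 or between siWdr5 and siBard1 were lost without either siWdr5 library, and those against siBard1 without siBard1 replicate 2.

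At day 6 members passed the test in siWdr5 only. *Fos*, *Egr1*, *Fosl2* and *Junb* rose there (4 of 10, where 16.1% of all genes tested rose) and none fell (5.70% fell). *Fos* had 4.88 and 5.42 CPM in the nt control, 11.9 and 13.5 CPM in siWdr5, 7.28 and 8.90 CPM in siBrca1 and 10.4 and 8.29 CPM in siBard1. Every knockdown library lay above both controls, the siWdr5 pair highest. The log2-fold change in siWdr5 was 1.27 (SE 0.20, adjusted p = 0.00415).

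*Egr1* had 38.7 and 23.4 CPM in the nt control, 76.3 and 57.4 CPM in siWdr5, 46.5 and 54.8 CPM in siBrca1 and 76.0 and 59.3 CPM in siBard1. The control libraries were far apart, and all knockdown libraries still lay above the higher of them. The log2-fold change in siWdr5 was 1.13 (SE 0.23, adjusted p = 0.0102), and 0.77 without the low control library, replicate 2 (adjusted p = 0.0782).

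*Fosl2* had 236 and 213 CPM in the nt control, 387 and 470 CPM in siWdr5, 272 and 296 CPM in siBrca1 and 324 and 279 CPM in siBard1, with a log2-fold change of 0.93 in siWdr5 (SE 0.14, adjusted p = 0.00390). *Junb* had 90.1 and 72.2 CPM, 118 and 131 CPM, 93.3 and 86.8 CPM, and 148 and 115 CPM in the same order, with a log2-fold change of 0.62 in siWdr5 (SE 0.15, adjusted p = 0.0188). For *Fosl2* no knockdown library overlapped the control, and for *Junb* only siBrca1 did. The siWdr5 calls rest on few libraries: all 4 were lost without siWdr5 replicate 2, the deepest library, and 3 without nt control replicate 2, which left *Fos*.

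In siBrca1 and siBard1 at day 6 limma called 0 of 10 members. In siBrca1 the background was 0% in both directions and 3 members had an unadjusted p under 0.05. In siBard1 0.0784% of all genes rose and 0% fell, and 4 members had an unadjusted p under 0.05. Limma-voom called 0 members in either. The largest changes in siBard1 were those of *Egr1* (log2-fold change 1.16, 95% interval 0.64 to 1.67, adjusted p = 0.106), *Fos* (0.83, 0.40 to 1.27, adjusted p = 0.136) and *Junb* (0.69, 0.36 to 1.03, adjusted p = 0.119). With all 16 libraries in 1 fit *Egr1* (adjusted p = 0.00887) and *Junb* (0.0304) passed in siBard1. In siBrca1 *Egr1* had 0.74 (0.23 to 1.26) and *Fos* 0.63 (0.20 to 1.07), both at an adjusted p of 0.484, and *Egr1* had 0.38 without nt control replicate 2 and 1.11 without nt control replicate 1.

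The other members stood closer to the control at day 6. *Fosl1* had 48.3 and 31.4 CPM in the nt control, 59.4 and 52.7 CPM in siWdr5, 58.6 and 36.5 CPM in siBrca1 and 53.5 and 50.1 CPM in siBard1, and did not pass (adjusted p = 0.132 in siWdr5). *Jun* had 102 and 88.8 CPM, 138 and 124 CPM, 130 and 89.1 CPM, and 127 and 111 CPM in the same order and did not pass (adjusted p = 0.0801 in siWdr5). *Fosb* lay between 1.20 and 2.31 CPM in the 8 libraries of day 6, *Jund* between 20.9 and 29.8 CPM, *Atf3* between 6.88 and 9.56 CPM and *Ier2* between 28.2 and 39.8 CPM, with log2-fold changes of −0.46 to 0.29 over the 3 knockdowns. At this day the fibroblast markers summed to 5397 to 5623 CPM in the nt control, 9801 to 13417 CPM in siWdr5, 6601 to 6999 CPM in siBrca1 and 8517 to 8611 CPM in siBard1. The epithelial and pluripotency markers summed to 627 to 814, 358 to 550.1, 646 to 900.4 and 544 to 588 CPM in the same order. In siWdr5 2 of the 8 tested fell (25.0%, beside 5.70% of all genes tested). Of the 11 fibroblast markers 6 rose and 1 fell in siWdr5 (54.5% and 9.09%, beside 16.1% and 5.70% of all genes tested). In siBrca1 and siBard1 limma called 0 of the 11, with 4 and 8 at an unadjusted p under 0.05. In the nt control from day 3 to day 6, 5 of the 11 rose and 4 fell (45.5% and 36.4%, beside 19.0% and 27.1%). The part of these markers in the changes was not tested.

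Whether a change differed between the days was tested as an interaction over all 16 libraries. *Fosl2* in siBrca1 was the 1 member that passed (1 of 10, where 20.5% of all genes tested passed). Its rise of 1.16 at day 3 was 0.34 at day 6, a difference of −0.82 (SE 0.19, adjusted p = 0.00964), and without siBrca1 replicate 2 of day 3 the adjusted p was 0.0585. No member passed in siWdr5 (4.43% of all genes passed) or siBard1 (0.0499% passed), by limma or by limma-voom. At an unadjusted p under 0.05 there were 2 members in siWdr5 and 4 in siBard1. The change of *Egr1* was 0.87 higher at day 6 in siWdr5 (95% interval 0.27 to 1.47, adjusted p = 0.0808) and 0.95 higher in siBard1 (0.36 to 1.55, adjusted p = 0.0936). That of *Fos* was 0.85 higher in siWdr5 (0.19 to 1.505, adjusted p = 0.115) and 0.84 higher in siBard1 (0.18 to 1.5, adjusted p = 0.157). For *Fosl2* the difference in siWdr5 was 0.13 (−0.28 to 0.55, adjusted p = 0.729).

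**Figure D4:**
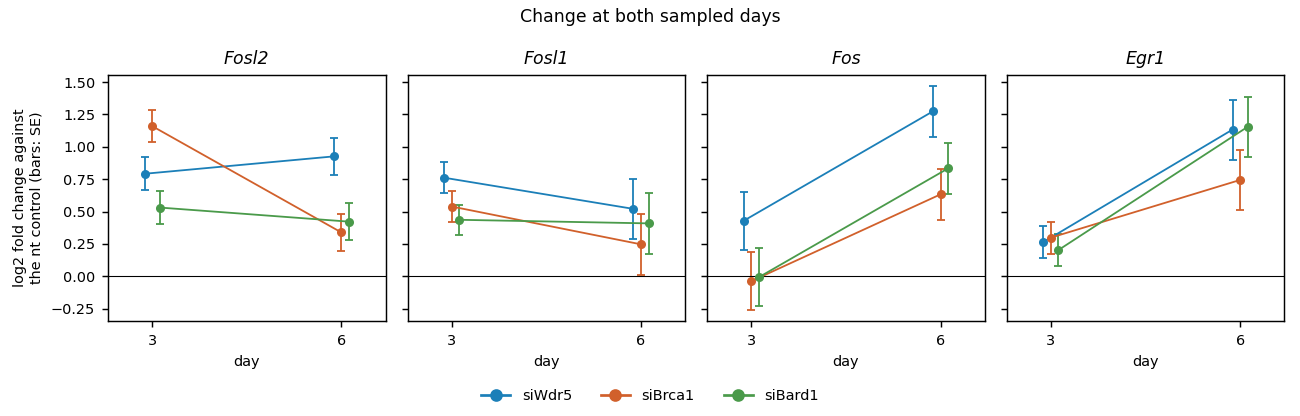
Log2-fold change against the nt control (vertical, bars for SE) at day 3 and day 6 (horizontal) for *Fosl2*, *Fosl1*, *Fos* and *Egr1*, with 1 line per knockdown. *Fosl2* in siBrca1 goes from 1.16 to 0.34, while the points of *Fos* and *Egr1* are higher at day 6 in each knockdown, differences that did not pass the test.

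Across the 16 libraries, with each gene centred on the mean of its day, the members did not form a single pattern. *Jun* went with *Fosl1* (Pearson r = 0.84) and *Junb* (0.83), *Junb* with *Egr1* (0.77), *Fos* with *Egr1* (0.70) and *Fosb* with *Jund* (0.72), whereas *Fos* and *Fosb* had r = −0.47. These values are descriptions over 16 libraries of 8 groups that share controls, and they carry no test. The genes whose profile was most like the mean of the members were *Zfp36l2* (r = 0.94), *Vat1* (0.93), *Rhoa* (0.93), *Fhl3* (0.93) and *Fam171a2* (0.93). *Fosl2* alone was most like *Sidt2*, *Epb41l3*, *Vcl*, *Flna* and *Arhgef10* (r of 0.99 each).

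Other genes of the pathway were taken from lists of known genes, and changes below are log2-fold changes at day 3 in the order siWdr5, siBrca1 and siBard1 where 3 values are given. Of 35 tested other immediate early genes, 24 rose and 0 fell in siWdr5 at day 3. In siBrca1 27 rose and 1 fell, and in siBard1 15 rose and 0 fell. The shares that rose were 68.6%, 77.1% and 42.9%, beside 18.3%, 25.4% and 8.67% of all genes tested. Of all genes tested 16.8%, 21.8% and 5.87% fell. The median log2-fold changes were 0.70, 0.84 and 0.37 (−0.04, 0.00 and −0.02 over all genes tested). *Ctgf*, a secreted matrix-associated protein, rose by a log2-fold change of 2.41, 3.14 and 1.82 in siWdr5, siBrca1 and siBard1. *Ptgs2*, the inducible cyclooxygenase, rose by 1.52, 2.09 and 1.04, and *Sgk1*, a serum-regulated kinase, by 1.63, 1.25 and 0.85. At the other end of the called genes, *Srf* and *Klf10* rose in siBrca1 by 0.70 and 0.39, and *Egr3* fell there (−1.05, adjusted p = 0.0127). *Klf10* also rose in siWdr5 (0.49).

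Of 26 tested classical AP-1 target genes, 20 rose and 0 fell in siWdr5. In siBrca1 20 rose and 1 fell, and in siBard1 14 rose and 1 fell. The shares that rose were 76.9%, 76.9% and 53.8%, beside 18.3%, 25.4% and 8.67% of all genes tested. Of all genes tested 16.8%, 21.8% and 5.87% fell. The median log2-fold changes were 1.05, 1.08 and 0.44. The cytokine *Il6* rose by 1.86, 1.92 and 1.57 and the protease *Plau* by 1.31, 1.66 and 1.3. The collagenase gene *Mmp13* rose in siWdr5 (2.11, adjusted p = 0.000204) and had −0.54 and −0.58 in siBrca1 and siBard1 (adjusted p = 0.162 and 0.212). The stromelysin gene *Mmp3* fell in siBrca1 (−1.76, adjusted p = 0.00012) and siBard1 (−1.19, adjusted p = 0.00918) and had 0.33 in siWdr5. *Cd44*, a hyaluronan receptor, rose in siWdr5 (0.42) and siBrca1 (0.35).

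Of 17 tested genes of other basic leucine zipper factors, 9 rose in siWdr5, 12 in siBrca1 and 2 in siBard1, and none fell. The shares that rose were 52.9%, 70.6% and 11.8%, beside 18.3%, 25.4% and 8.67% of all genes tested, so siBard1 lay near the background. Of all genes tested 16.8%, 21.8% and 5.87% fell. *Maff*, a small Maf protein, rose by 0.77, 0.96 and 0.56 and *Maf* by 1.08, 0.35 and 0.56, while *Ddit3*, the stress factor CHOP, rose in siWdr5 (0.69) and siBrca1 (0.88). *Atf5* rose in siBrca1 alone of the 3 (1.23), with −0.07 and −0.15 in siWdr5 and siBard1, and *Mafk* rose in siWdr5 (0.35) and siBrca1 (0.33). *Mafg* rose in siBrca1 (0.31).

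Of 43 tested genes of MAP kinase and serum response input, 10 rose and 4 fell in siWdr5, 14 rose and 4 fell in siBrca1 and 2 rose and 1 fell in siBard1, with medians of 0.07, 0.16 and 0.01. The shares that rose were 23.3%, 32.6% and 4.65%, beside 18.3%, 25.4% and 8.67% of all genes tested, so they lay near the background and in siBard1 below it. Shares that fell were 9.30%, 9.30% and 2.33%, below the 16.8%, 21.8% and 5.87% of all genes tested. The phosphatases *Dusp4* (0.75 and 1.26) and *Dusp10* (0.85 and 0.94) rose in siWdr5 and siBrca1, and the ternary complex factor *Elk3* rose in all 3 (0.58, 1.01 and 0.46). The kinase genes *Map2k6* (−1.57 and −1.33) in siWdr5 and siBrca1, *Mapk11* (−1.38) in siWdr5 and *Rps6ka1* (−0.90 and −0.85) in siWdr5 and siBard1 fell.

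Of 16 heat shock genes 3 rose and 4 fell in siWdr5, and 3 rose and 5 fell in siBrca1. The share that rose was 18.75% in both, beside 18.3% and 25.4% of all genes tested, and the shares that fell, 25.0% and 31.25%, stood beside 16.8% and 21.8%. In siBard1 limma and limma-voom called 0, with 6 by limma at an unadjusted p under 0.05. *Hspb1* (0.81 and 1.41), *Bag3* (0.89 and 0.83) and *Hspb8* (0.56 and 1.05), small chaperones and a co-chaperone, rose in siWdr5 and siBrca1, while *Hspd1* (−0.33 and −0.70), *Hspe1* (−0.50 and −0.62) and *Hsp90aa1* (−0.50 and −0.74) fell in both.

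**Figure D5:**
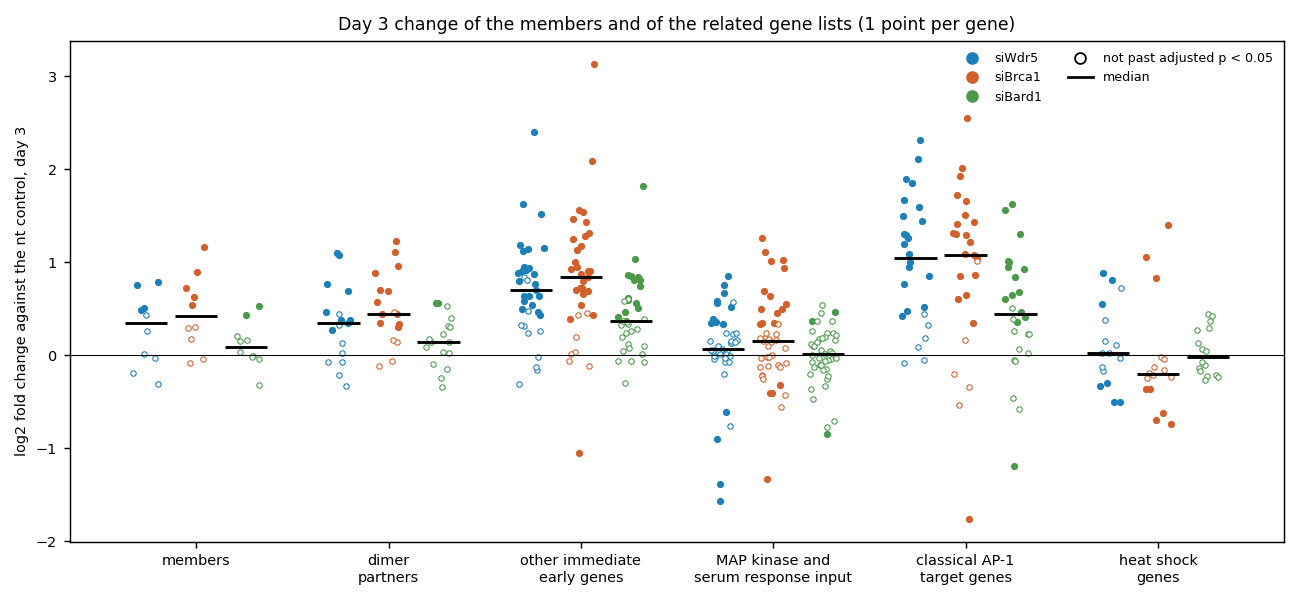
Log2-fold change at day 3 (vertical) of the members and of the tested genes of 5 lists (horizontal), 1 point per gene and 1 colour per knockdown, filled at adjusted p < 0.05, with a bar at each median. The medians of the other immediate early genes (0.70 and 0.84) and the AP-1 target genes (1.05 and 1.08) in siWdr5 and siBrca1 stand above those of the members (0.35 and 0.42).

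Both the immediate early genes and the AP-1 target genes had calls in siWdr5 at day 6. Of the other immediate early genes 15 rose and 0 fell there, and of the AP-1 target genes 10 rose and 4 fell. The shares that rose were 42.9% and 38.5%, beside 16.1% of all genes tested. The target genes that fell were 15.4%, beside 5.70% of all genes tested. The medians were 0.47 and 0.39 (0.08 over all genes tested). In siBrca1 and siBard1 limma called 0 genes of either list at day 6, with 5 and 9 of the immediate early genes and 8 and 9 of the target genes at an unadjusted p under 0.05.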

How the data were processed

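RNA-seq was done on total RNA, depleted of ribosomal RNA, of 16 cultures. Per the study's methods, reads were aligned to mm10 with STAR 2.5.2b, and the authors deposited log2 CPM values made with edgeR 3.20.9. The counter and its strand setting are not given in the sources used here. Introduced and endogenous reprogramming factors are counted together, so *Myc* and *Klf4* were not used as immediate early genes. Whole reads were recovered from the deposited log2 values (every value within 6.8e-05 of a whole number) and gave the depth and the CPM printed here.

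Genes with a mean log2 CPM above 0 were tested with limma 3.58.1 in R 4.3.3, with a trend and Benjamini-Hochberg adjustment over all of them at 0.05. Libraries of 1 day were fitted together, and the nt control course and the interactions used all 16 libraries. The deposited values hold a small prior, which lowers the fold changes of low genes such as *Fosb*. With 2 libraries per group, the p-values rest on the spread between libraries, pooled over the groups fitted together and moderated across genes. The limma fit of each comparison was also run on simulated reads with known changes of 1 or 2 on the log2 scale. Smaller changes and other settings were not simulated.

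All 10 members were named, and from each list the 3 highest and 3 lowest by mean day 3 change among genes called in at least 1 knockdown, except 1 gene that is not reported here. The members and lists were chosen with earlier results of these data known. The alternatives were the filter, a pseudocount of 1 CPM, median centring, no trend, a replicate block, limma-voom on the recovered reads, a fold limit, all 16 libraries in 1 fit and leaving out each library. The lists were put through the same alternatives, a step added after the data were seen. Same-numbered libraries were not treated as pairs.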

Additional observations from a re-analysis of the deposited data

Results flagged for a closer look

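The change of *Fosl2* in siBrca1 differed between the days. The log2-fold change against the nt control was 1.16 at day 3 and 0.34 at day 6, and the difference itself, tested as an interaction in limma, was −0.82 (95% interval −1.23 to −0.41, adjusted p = 0.00964). Both siBrca1 libraries were above both controls at either day. *Brca1* had a log2-fold change of −1.57 in siBrca1 at day 3 and 0.01 at day 6, and its part in the difference was not tested. In the nt control itself *Brca1* fell from day 3 to day 6 (log2-fold change −1.09, limma, adjusted p = 0.000709). Of all genes tested 20.5% passed the interaction in siBrca1, and *Fosl2* was 1 of the 10 members. Leaving out 1 library in turn gave differences of −0.98 to −0.66 for *Fosl2*, and the call was lost without siBrca1 replicate 2 of day 3. Groups of 2 libraries are too small to say which library stands apart.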

How the results depend on the processing

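With 2 libraries per group, single libraries set much of what passed. Over 77 changes of the members and 840 alternatives, 719 kept direction and side of the threshold, 67 lost the call, 17 gained one and 37 turned direction, all of the last in changes that had not passed. For the lists, 436 counts stayed within 1.5 times and 92 did not, and of the named genes 618 results held and 75 lost the call. The causes of these shifts were not tested.

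Leaving out 1 library in turn gave 2 to 3 members called in siWdr5, 2 to 6 in siBrca1 and 0 to 2 in siBard1 at day 3, and 0 to 4 in siWdr5 at day 6. It gave 1 to 2 in the nt control course, 0 to 3 for the difference between days in siBrca1, 0 to 5 between siBrca1 and siWdr5, 0 to 3 between siBrca1 and siBard1 and 0 to 2 between siWdr5 and siBard1. The difference between days had 0 calls without siBrca1 replicate 2 of day 3 and 3 without siBrca1 replicate 1 of day 6, and siBrca1 against siWdr5 had 5 without siBrca1 replicate 1.

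With an absolute log2-fold change above 1 required, day 3 kept 0 members for siWdr5, 1 for siBrca1 and 0 for siBard1, and the count was 2 in siWdr5 at day 6, 0 in the nt control course, 0 for the difference between days in siBrca1, 1 between siBrca1 and siWdr5, 0 between siBrca1 and siBard1 and 0 between siWdr5 and siBard1. Without the filter on low values it was 0 in siBard1 at day 3, 1 in the nt control course, 1 between siBrca1 and siWdr5, 1 between siBrca1 and siBard1 and 0 between siWdr5 and siBard1. Without the trend it was 0 in siBard1 at day 3, 1 in the nt control course, 2 for the difference between days in siBrca1, 1 between siBrca1 and siWdr5, 0 between siBrca1 and siBard1 and 0 between siWdr5 and siBard1. With all 16 libraries in 1 fit it was 1 in siBard1 at day 3, 2 in siBard1 at day 6, 1 between siBrca1 and siBard1 and 1 between siWdr5 and siBard1. The nt control course had 4 with median centring and 1 by limma-voom, and siBrca1 at day 3 had 7 with median centring.

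With the replicate block the count was 1 in siBard1 at day 6, 1 for the difference between days in siWdr5 and 2 for that in siBrca1, while it was 6 in siWdr5 at day 6, 6 in siBrca1 at day 3 and 3 in the nt control course. The numbers were not taken to pair the libraries: the correlation of same-numbered deviations averaged 0.0197 (−0.0931 to 0.0721) at day 3 and 0.108 (−0.0696 to 0.260) at day 6 over 6 pairs of groups.

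Turned directions under other settings were small. Median centring gave 0.042 for *Jund* in siWdr5, 0.015 for *Fos* and 0.0053 for *Junb* in siBard1 at day 3, and −0.021 for *Ier2* in siBrca1 at day 6, while limma-voom gave 0.026 for *Fos* in siBard1 at day 3 and −0.0015 for *Ier2* in siBrca1 at day 6. Leaving out 1 library gave these ranges at day 3. In siWdr5 *Jund* had −0.18 to 0.13 and *Atf3* −0.16 to 0.18, and in siBrca1 *Fos* had −0.25 to 0.18 and *Ier2* −0.17 to 0.014. In siBard1 *Fos* had −0.21 to 0.20, *Jun* −0.19 to 0.12, *Junb* −0.19 to 0.16, *Jund* −0.086 to 0.41 and *Atf3* −0.12 to 0.19. At day 6 *Jund* had −0.21 to 0.12 and *Ier2* −0.028 to 0.20 in siWdr5, and *Jund* −0.22 to 0.11 in siBard1. In siBrca1 at day 6 *Fosb* had −0.70 to 0.012, *Fosl1* −0.095 to 0.59, *Jun* −0.10 to 0.44, *Junb* −0.0018 to 0.32, *Jund* −0.14 to 0.34 and *Ier2* −0.13 to 0.14. In the nt control course *Junb* had −0.062 to 0.26 and *Egr1* −0.46 to 0.26.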
